A study of Mus musculus with 4514 samples.

Results

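Hepatocytes in which Usf1 knockout was started at postnatal day 12 were described here from 63 Smart-seq3 cells, the group labelled P12+40d Usf1-KO, of 1226 Smart-seq3 cells and 4514 samples in the whole series. The members were chosen by their labels alone. The 5 groups of that stage held 725 cells: 8.69% were Usf1-KO, 22.8% Nr2f2-KO, 28.6% Xbp1-KO, 17.4% Tef-KO and 22.6% WT, the group they were set against. Usf1 and Nr2f2 were also knocked out in older mice, labelled P60+14d, with 501 cells, of which 31.1% were Usf1-KO, 32.1% Nr2f2-KO and 36.7% WT. The first number of a label is read as the postnatal day of the start and the second as the days from then to collection. All 8 groups, WT included, are labelled with the Rosa-Cas9 genotype, mouse liver and hepatocytes. The labels used here name neither the guides, the way they were delivered, the edited site, the strain, the sex nor the animals. Single cells were picked into lysis buffer, and in Smart-seq3, a plate-based method that reads whole transcripts, each cell got a library of its own.

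Because no animal is named, the cells of a group were treated as 1 pool, and n = 1 pool per group. Counts were summed over the cells of a pool and scaled to 1000000 counts per pool (CPM). No test between Usf1-KO and WT was possible at P12+40d: differences there are sizes, and genotype and animal cannot be told apart. Intervals given below are 95% exact Poisson or Clopper-Pearson intervals that cover counting error only.

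USF1 is a basic helix-loop-helix leucine zipper transcription factor that binds the E-box CACGTG, mostly as a dimer with USF2. In liver it is known for activating genes of glucose and lipid metabolism after feeding, among them fatty acid synthase. Srebf1 encodes SREBP1, the leading transcription factor of fatty acid synthesis, and Saa1 encodes serum amyloid A, a plasma protein that the liver releases in large amounts in the acute-phase response to inflammation.

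The pools held 54530774 counts in Usf1-KO and 137925496 in WT, and the other 6 pools held between 102549164 and 161678052. The median cell had 880620 counts and 8431 detected genes in Usf1-KO, against 854078 counts and 9113.5 genes in WT. The 10 most abundant genes took 33.5% of the counts in Usf1-KO, against 20.7% to 24.9% in the other 7 pools. Hepatocyte markers were abundant in all pools; albumin (Alb) stood at 23212 CPM in Usf1-KO and at 43100.4 CPM in WT. A single Usf1-KO cell stood apart from the other 62, and results are given with and without it where it matters. Its Saa1 level was 868 CPM and its Srebf1 level was 161.1 CPM, the highest of the 63, while the other 62 cells lay between 0 and 49.9 CPM for Srebf1. Of the 11 genes named below as higher in Usf1-KO apart from Saa1, this cell lay at or below the highest WT cell in all 11. Of the 12 genes named as lower, it lay within the WT range in 11.

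Markers of other liver cells were low in the Usf1-KO pool but not all at the WT level. The summed level of 13 macrophage markers was 27.1 CPM in Usf1-KO and 5.86 CPM in WT, with a range of 1.92 to 27.1 CPM over the 8 pools. The summed level of 8 lymphocyte and neutrophil markers was 43.6 CPM in Usf1-KO and 0.0580 CPM in WT, the extremes of the 8 pools, and Cd3e, Cd3g, Cd79a, Ms4a1 and Nkg7 were at 0 in Usf1-KO. A single Usf1-KO cell gave 99.2% of the summed per-cell CPM of S100a8 and 99.6% of that of S100a9, both neutrophil calprotectin genes. Another single cell gave 97.9% of the summed per-cell CPM of C1qa. Those cells had 108895 and 119953 CPM of Saa1, close to the Usf1-KO median cell at 96180 CPM. The 10 endothelial markers summed to 13.4 CPM in Usf1-KO and 8.25 CPM in WT, and 10 stellate cell markers to 1.03 and 2.54 CPM. The part of these cells in the results below was not tested beyond those values.

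Usf1 RNA itself (chr1:171411313-171419142, GRCm38, plus strand) was not lost from the pool. Its level was 30.1 CPM in Usf1-KO (interval 28.7 to 31.6), 82.4 in Nr2f2-KO, 31.2 in Xbp1-KO, 38.8 in Tef-KO and 44.2 in WT (43.1 to 45.4). Usf1-KO was thus the lowest of the 5 pools, with Xbp1-KO inside its interval and a log2 ratio to WT of -0.54. Usf1 counts were found in 57 of 63 Usf1-KO cells (90.5%, interval 80.4% to 96.4%) and in 93.9% of WT cells (89.1% to 97.04%). With every cell thinned to 200000 counts the shares were 80.95% in Usf1-KO and 84.8% in WT. The median cell had 21.6 CPM in Usf1-KO and 18.6 CPM in WT, and 34 of the 63 Usf1-KO cells lay above the WT median. At P60+14d the level was 116.6 CPM in Usf1-KO, 106.8 in Nr2f2-KO and 68.6 in WT, a log2 ratio of Usf1-KO to WT of 0.76. The edited site is not given in the sources used here, and an edit that breaks the protein need not lower the RNA, so these levels do not check the labels.

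Across the 6288 genes with a mean of at least 10 CPM over the 5 P12+40d pools, 98 (1.56%) were at least 2-fold higher and 346 (5.5%) at least 2-fold lower in Usf1-KO. Fold changes are on the log2(CPM + 1) scale throughout. The median log2 ratio of all 6288 genes was -0.32, so most genes took a slightly smaller part of the Usf1-KO counts. Scaling by TMM factors (trimmed mean of M-values), which discounts the most abundant genes, put that median at -0.05, a shift of 0.27. It left 2.59% of the genes higher and 2.75% lower, so that 48.5% of the genes past 2-fold were higher, against 22.1% with CPM. Without the cell that stood apart, 98 genes were higher and 368 lower. By CPM, the Usf1-KO pool was also the most distant of the 5 pools of its stage. In it, 84 genes (1.34%) lay at least 1.5-fold above and 678 (10.8%) at least 1.5-fold below all 4 others. The same counts were 33 and 33 for WT (0.525% each) and 21 and 5 for Nr2f2-KO (0.334% and 0.0795%). They were 25 and 4 for Xbp1-KO (0.398% and 0.0636%) and 26 and 53 for Tef-KO (0.413% and 0.843%). These counts carry the median shift of -0.32 in Usf1-KO and were not redone with TMM scaling.

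Among the lists with at least 10 kept genes, the acute-phase genes had the highest median above WT. Of the 32 kept of 35 listed, 23 were at least 2-fold higher in Usf1-KO and 0 were lower, against 1.56% higher among all genes, and their median log2 ratio was 1.498 against -0.32 over all genes. TMM scaling put 28 of the 32 higher, with a median of 1.78. Saa1 (chr7:46740497-46742980, minus strand) was at 95408 CPM in Usf1-KO, 3118 in Nr2f2-KO, 13479 in Xbp1-KO, 643 in Tef-KO and 8458 in WT. Saa2 was at 98488 CPM in Usf1-KO, 1901 in Nr2f2-KO, 8970.4 in Xbp1-KO, 186.8 in Tef-KO and 5339.7 in WT. The Usf1-KO pool was the highest of the 5 for both, and WT came after Xbp1-KO. The log2 ratios to WT were 3.496 for Saa1 and 4.20 for Saa2.

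Saa1 and Saa2 are near-identical neighbours, so reads may be split between them. Their promoters, from RefSeq on GRCm38.p6 (250 bases before to 50 after the start), are shown because both genes were among the most abundant in Usf1-KO. A global alignment left 95.7% of the 300 bases identical. The Saa1 window is chr7:46742931-46743230 on the minus strand and the Saa2 window chr7:46751583-46751882 on the plus strand.
Saa1: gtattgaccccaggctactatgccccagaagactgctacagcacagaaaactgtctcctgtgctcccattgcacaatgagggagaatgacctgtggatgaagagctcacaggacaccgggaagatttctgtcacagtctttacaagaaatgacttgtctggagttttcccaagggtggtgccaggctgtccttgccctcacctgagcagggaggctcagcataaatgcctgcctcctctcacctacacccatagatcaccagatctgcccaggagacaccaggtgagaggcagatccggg
Saa2: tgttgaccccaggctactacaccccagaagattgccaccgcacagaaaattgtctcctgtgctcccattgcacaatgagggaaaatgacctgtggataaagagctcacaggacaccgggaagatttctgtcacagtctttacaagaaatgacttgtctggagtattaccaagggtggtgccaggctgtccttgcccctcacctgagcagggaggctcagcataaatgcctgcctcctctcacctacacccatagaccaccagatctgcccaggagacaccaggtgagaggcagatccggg
Neither window holds CACGTG or TTCNNNGAA, the palindromic element bound by STAT factors, both of which read the same on either strand.

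Together Saa1 and Saa2 made up 19.4% of all counts in the Usf1-KO pool, against 0.502% in Nr2f2-KO, 2.24% in Xbp1-KO, 0.0830% in Tef-KO and 1.38% in WT. The share was above 10% in 61 of 63 Usf1-KO cells, in 2 Nr2f2-KO cells (1.21%), in 1 Xbp1-KO cell (0.483%) and in 0 Tef-KO and 0 WT cells, which, taking 3 counts of the total as the limit for a count of 0, allows shares of cells of up to 2.38% in Tef-KO and 1.83% in WT. Over Usf1-KO cells the lowest, median and highest shares were 0.158%, 19.1% and 28.6%, and over WT cells 0.0239%, 0.719% and 9.51%. The cell that stood apart held the lowest of the Usf1-KO shares, and the high level was shared by nearly the whole pool.

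**Figure D1:**
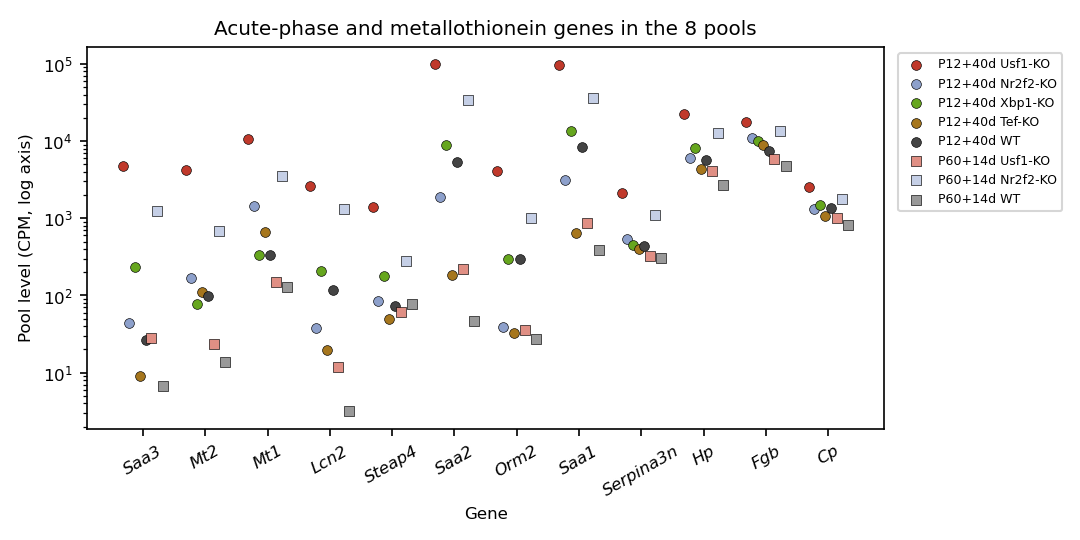
Pool levels in CPM (log axis) of acute-phase and metallothionein genes in the 8 Smart-seq3 pools, 1 colour per pool, with P12+40d pools before P60+14d pools. The P12+40d Usf1-KO pool is the highest for Saa1 at 95408 CPM, and the P60+14d Nr2f2-KO pool, at 35800.4 CPM, is the next.

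Other secreted acute-phase products were high as well. Saa3, a serum amyloid A gene made mainly outside hepatocytes in the resting state, was at 4704 CPM in Usf1-KO, 43.7 in Nr2f2-KO, 233.4 in Xbp1-KO, 9.14 in Tef-KO and 26.7 in WT, the widest gap of the named genes with a log2 ratio of 7.41. Lcn2, which encodes the iron-siderophore binder lipocalin 2, was at 2639 CPM in Usf1-KO, 38.3 in Nr2f2-KO, 207.5 in Xbp1-KO, 19.51 in Tef-KO and 118.9 in WT. Orm2, an orosomucoid with near-identical relatives, was at 4148 CPM in Usf1-KO, 38.998 in Nr2f2-KO, 294.5 in Xbp1-KO, 32.4 in Tef-KO and 293.5 in WT. For these 3 genes the Usf1-KO pool stood far above the other 4, among which Xbp1-KO was the highest and Tef-KO the lowest for each gene. The gap was smaller for abundant plasma proteins: haptoglobin (Hp) was at 22202 CPM in Usf1-KO and 5629.7 in WT, hemopexin (Hpx) at 13490.5 and 3462 CPM, and the fibrinogen chain Fgb at 17836 and 7442 CPM. Serpina3n, a protease inhibitor of a multigene family, was at 2099.9 CPM in Usf1-KO and 434 in WT.

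The metallothioneins, small metal-binding proteins, were high in the same cells. Mt1 was at 10492 CPM in Usf1-KO, 1451 in Nr2f2-KO, 336.7 in Xbp1-KO, 657 in Tef-KO and 335.4 in WT. Mt2 was at 4173 CPM in Usf1-KO, 170.5 in Nr2f2-KO, 77.9 in Xbp1-KO, 111.5 in Tef-KO and 97.9 in WT. In 62 of 63 Usf1-KO cells, both genes lay above the highest WT cell. Steap4, a metalloreductase gene, was at 1382 CPM in Usf1-KO, 84.6 in Nr2f2-KO, 176.6 in Xbp1-KO, 49.97 in Tef-KO and 73.7 in WT, and again 62 of 63 cells lay above every WT cell. Its promoter, chr5:7960222-7960521 on the plus strand (RefSeq, GRCm38.p6), is shown because it was the one of 10 named higher genes with a promoter in the table that held TTCNNNGAA, here in capitals.
Steap4: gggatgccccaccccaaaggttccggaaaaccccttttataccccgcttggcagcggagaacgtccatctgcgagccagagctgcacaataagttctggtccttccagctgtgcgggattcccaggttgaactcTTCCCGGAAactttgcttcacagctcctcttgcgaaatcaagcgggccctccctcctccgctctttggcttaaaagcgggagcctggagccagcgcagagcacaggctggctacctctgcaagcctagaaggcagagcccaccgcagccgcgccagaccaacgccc
That element stood in 14.7% of the promoters of the genes at least 2-fold higher in Usf1-KO (11 of 75), 7.09% of those lower, 6.84% of the 4784 kept genes with a promoter and 8.47% of all 27025 genes. Among the 8 genes named below as lower that had a promoter, 2 held it, Hamp2 and Tsc22d1.

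Genes that sense or pass on the inflammatory signal were less uniform. Il1r1, the interleukin 1 receptor, was at 156.4 CPM in Usf1-KO and 32.2 in WT, and Lbp, the lipopolysaccharide-binding protein, at 304.1 and 65.6 CPM. Socs3, the feedback inhibitor of STAT3 signalling, was at 20.9 CPM in Usf1-KO and 3.49 in WT, and Stat3 itself at 94.1 and 47.1 CPM. Tifa, an adaptor that links receptors to NF-kB, was at 209.02 CPM in Usf1-KO, 16.8 in Nr2f2-KO, 24.7 in Xbp1-KO, 19.4 in Tef-KO and 22.4 in WT. Il6ra, the interleukin 6 receptor chain, was at 30.97 CPM in Usf1-KO and 30.9 in WT, and Nfkbia, the NF-kB inhibitor, at 48.6 and 65.2 CPM. Interferon-induced genes stood near the WT level: of 17 kept members, 0 were 2-fold higher and 0 lower, with a median of 0.10.

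**Figure D2:**
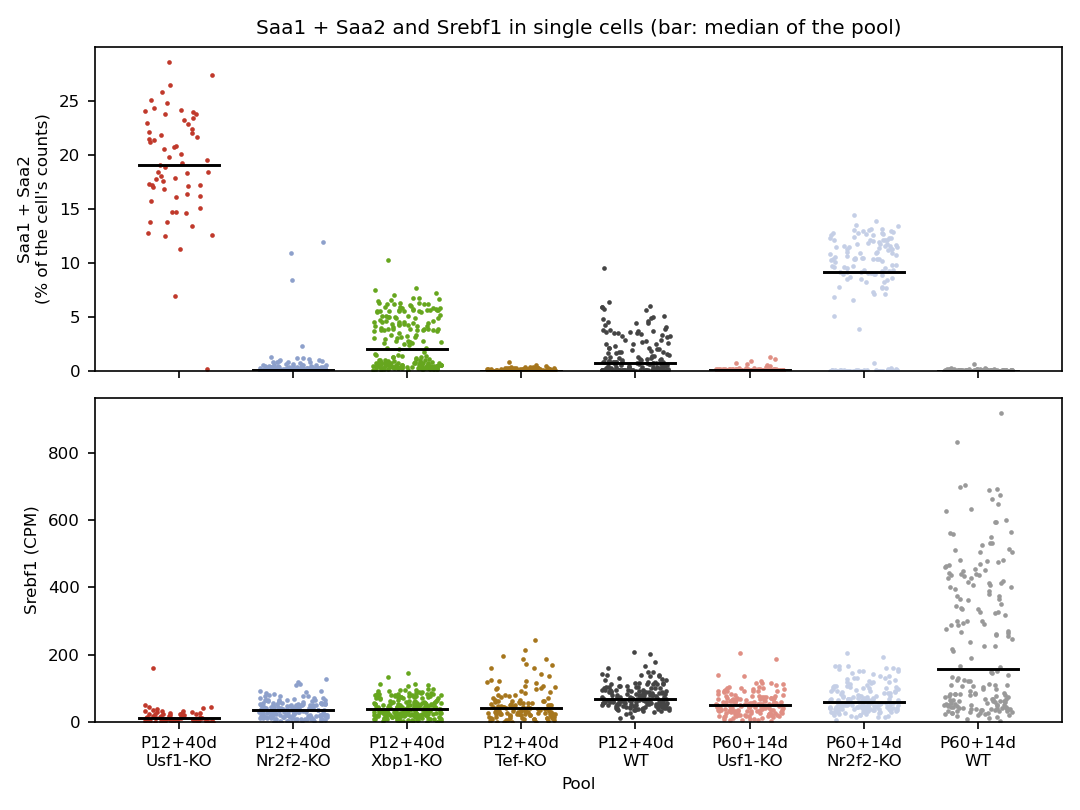
Single cells of the 8 pools, each point 1 cell and each bar the median of the pool: the upper panel gives Saa1 and Saa2 together as a percent of the cell's counts, the lower panel Srebf1 in CPM. P12+40d Usf1-KO has the highest median share, 19.1%, and 1 of its cells, with a share of 0.158% and 161.1 CPM of Srebf1, lies apart.

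The remaining named higher genes were regulators. Sox9, a transcription factor of bile duct and progenitor cells, was at 36.97 CPM in Usf1-KO, 10.3 in Nr2f2-KO, 8.26 in Xbp1-KO, 4.08 in Tef-KO and 3.29 in WT. It was counted in 61 of 63 Usf1-KO cells (96.8%) and in 45.1% of WT cells, and with cells thinned to 200000 counts in 92.1% and 29.9%. Spp1, osteopontin, was at 79.9 CPM in Usf1-KO and 23.2 in WT, but Krt7, Krt19, Epcam and Cftr, defining bile duct markers, were at 0 in the Usf1-KO pool. Sox9 and Spp1 were the 2 kept genes of the 7 bile duct markers listed, with a median log2 ratio of 2.44 at P12+40d and 2.38 at P60+14d. Their median was also 2.17 in Nr2f2-KO at P60+14d. In the other knockouts of P12+40d it was 1.22 in Xbp1-KO, 0.62 in Nr2f2-KO and -0.44 in Tef-KO. Id3, an inhibitor of basic helix-loop-helix factors, was at 121.7 CPM in Usf1-KO, 56.1 in Nr2f2-KO, 66.5 in Xbp1-KO, 32.03 in Tef-KO and 16.7 in WT, so that WT was the lowest and Usf1-KO the highest pool. Tacc2, a centrosomal protein gene, was at 72.97 CPM in Usf1-KO, 12.8 in Nr2f2-KO, 20.97 in Xbp1-KO, 12.1 in Tef-KO and 11.1 in WT.

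Srebf1 (chr11:60199089-60222581, minus strand) was lower in Usf1-KO at both stages. At P12+40d it was at 16.3 CPM in Usf1-KO (interval 15.3 to 17.4), 36.8 in Nr2f2-KO, 39.8 in Xbp1-KO, 50.2 in Tef-KO and 76.4 in WT (74.9 to 77.8). WT was the highest and Usf1-KO the lowest pool, with the other 3 knockouts between them, and the log2 ratio of Usf1-KO to WT was -2.16. Over Usf1-KO cells the lowest, median and highest levels were 0, 10.8 and 161.1 CPM, and over WT cells 10.3, 68.98 and 206.7 CPM. Of the 63 Usf1-KO cells, 31 lay below the lowest WT cell and 62 below the WT median. Without the cell that stood apart the pool was at 14.7 CPM and the log2 ratio was -2.30. At P60+14d, Srebf1 was at 52.8 CPM in Usf1-KO, 67.96 in Nr2f2-KO and 261.8 in WT, a log2 ratio of -2.29 for Usf1-KO. The lowest, median and highest cells there were at 2.99, 50.9 and 206.1 CPM in Usf1-KO and at 1.18, 156.9 and 919 CPM in WT, so the WT cells were widely spread and overlapped the Usf1-KO range.

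The genes of fatty acid synthesis were lower with it at P12+40d. Of 17 kept genes of 19 listed, 0 were 2-fold higher and 8 were 2-fold lower in Usf1-KO, against 5.5% lower among all genes, with a median of -0.94. Srebf1 is itself on the list and is 1 of the 8. TMM scaling left 4 lower, Srebf1 among them, and put 1 higher, against 2.75% and 2.59% of all genes. Scd1, the stearoyl-CoA desaturase, was at 476 CPM in Usf1-KO, 2076 in Nr2f2-KO, 848 in Xbp1-KO, 1728 in Tef-KO and 2364 in WT. Thrsp, a lipogenic thyroid hormone target, was at 160.9 CPM in Usf1-KO, 330.8 in Nr2f2-KO, 190.3 in Xbp1-KO, 273.1 in Tef-KO and 669.8 in WT. Me1, the malic enzyme that supplies NADPH, was at 38.8 CPM in Usf1-KO, 69.6 in Nr2f2-KO, 70.8 in Xbp1-KO, 105.8 in Tef-KO and 142.1 in WT. Usf1-KO was the lowest pool for all 3, though Xbp1-KO was close for Thrsp. The other knockouts shared part of this: 4 of the 17 genes were 2-fold lower than WT in Nr2f2-KO, 6 in Xbp1-KO and 2 in Tef-KO, with 1.51%, 0.684% and 2.12% of all genes lower in those pools, all against the same WT pool. Acly, Fasn, Elovl6 and Lpin1 were also among the 8. Acly, which makes cytosolic acetyl-CoA, stood at 88.1 CPM in Usf1-KO, 89.4 in Xbp1-KO and 187.8 in WT, so that it did not set Usf1-KO apart from Xbp1-KO.

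**Figure D3:**
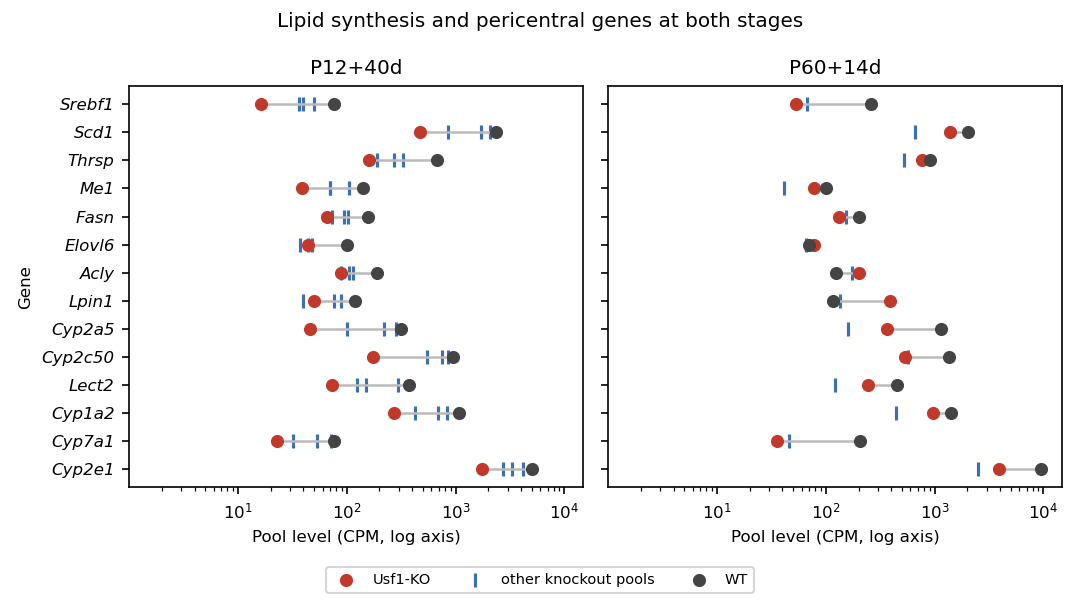
Pool levels in CPM (log axis) of lipid synthesis and pericentral genes at P12+40d (left) and P60+14d (right), with red points for Usf1-KO, blue ticks for the other knockout pools and dark points for WT. Srebf1 is lower in Usf1-KO at both stages (16.3 against 76.4 CPM and 52.8 against 261.8 CPM), while Acly and Lpin1 lie below WT at P12+40d and above it at P60+14d.

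At P60+14d most lipogenic enzymes were within 2-fold of WT. Of the 17 genes, 1, Srebf1 itself, was 2-fold lower in Usf1-KO, and 1, Lpin1, was 2-fold higher, with 1.15% of all genes lower and 1% higher at that stage. Lpin1, a phosphatidate phosphatase gene, was at 386 CPM in Usf1-KO and 115.4 in WT at P60+14d, but at 50.6 and 120.2 CPM at P12+40d. Acly was at 203.9 CPM in Usf1-KO and 123.5 in WT at P60+14d. Scd1 was at 1385 CPM in Usf1-KO and 2029 in WT there, and Fasn at 131.6 and 204.005 CPM. Insig2, which holds SREBP in the endoplasmic reticulum, was above WT at both stages, with 526 CPM in Usf1-KO and 307.1 in WT at P12+40d and 129.1 and 72.002 CPM at P60+14d, both under 2-fold.

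Genes reported as USF targets elsewhere were partly lower. Of 9 kept of 12 listed, 3 were 2-fold lower and 0 higher at P12+40d, with a median of -0.73, against 5.5% of all genes lower. TMM scaling left 1 lower, against 2.75% of all genes. Fasn, fatty acid synthase, was at 65.8 CPM in Usf1-KO and 158.4 in WT. Apoa2, an apolipoprotein of HDL, was at 16771 CPM in Usf1-KO and 40224 in WT. The cholesterol synthesis genes stood near WT as a group: 1 of 21 was 2-fold lower, 0 were higher, and the median was 0.01. That group's direction depends on scaling, with 2 higher, 0 lower and a median of 0.29 under TMM. Squalene epoxidase (Sqle) was at 69.2 CPM in Usf1-KO and 39.5 in WT.

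**Figure D4:**
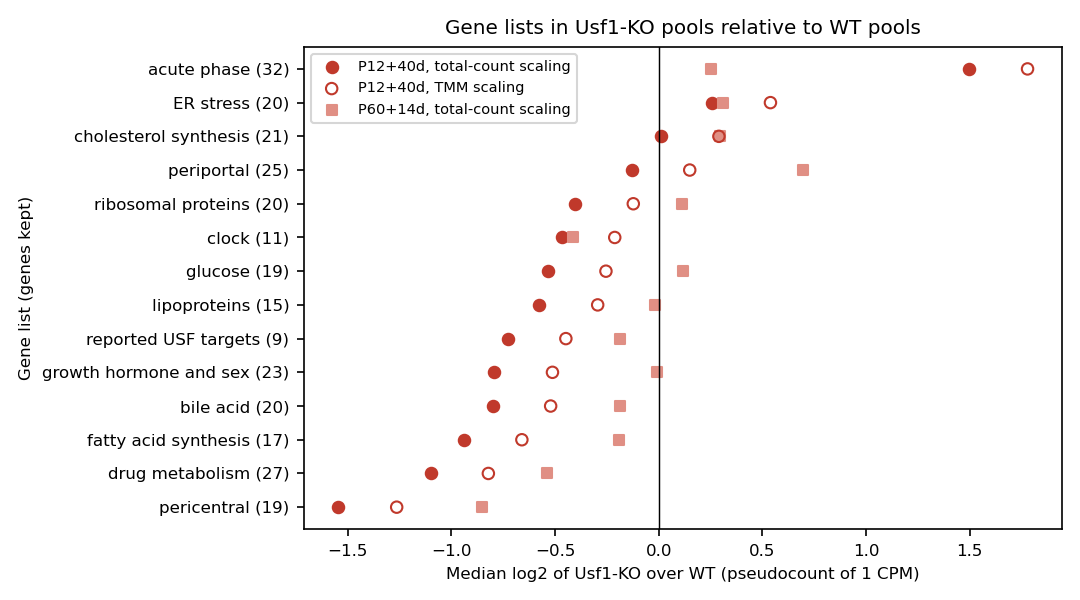
Median log2 ratio of Usf1-KO to WT for the gene lists named on the axis, each with its number of kept genes, at P12+40d, with CPM and with TMM scaling, and at P60+14d. Of the lists drawn, the acute-phase list is highest at 1.498 and the pericentral list lowest at -1.55 with CPM at P12+40d, and the median of all genes is -0.32.

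Pericentral genes, those expressed around the central vein of the lobule, had the lowest median of the lists drawn. Of 19 kept of 26 listed, 13 were 2-fold lower and 0 higher, with a median of -1.55, against 5.5% of all genes lower. Under TMM scaling 12 were lower, against 2.75% of all genes. Cyp2e1, which metabolises ethanol and small toxicants, was at 1730.4 CPM in Usf1-KO, 2729 in Nr2f2-KO, 3326 in Xbp1-KO, 4119 in Tef-KO and 5052 in WT. Its level varied widely among the 63 cells, from 24.1 to 14957 CPM with a median of 160 CPM, against 59.5 to 17134 CPM with a median of 4288 CPM over WT cells. Cyp2c50, of a near-identical gene family, was at 174.4 CPM in Usf1-KO, 542 in Nr2f2-KO, 853 in Xbp1-KO, 748 in Tef-KO and 949.5 in WT. Lect2, a secreted protein of the pericentral zone, was at 72.6 CPM in Usf1-KO, 124.9 in Nr2f2-KO, 294.1 in Xbp1-KO, 149.8 in Tef-KO and 376 in WT. Cyp7a1, the rate-limiting enzyme of bile acid synthesis, was at 23.1 CPM in Usf1-KO, 53.4 in Nr2f2-KO, 71.1 in Xbp1-KO, 32.4 in Tef-KO and 77.1 in WT. Usf1-KO was the lowest pool for each of these 4 genes. Glul, glutamine synthetase of the innermost cells, was at 180.2 CPM in Usf1-KO and 315.9 in WT, and the transcription factor gene Tbx3 was at 37.5 CPM in Usf1-KO and 26.02 in WT. The median cell lay the other way for both: Glul was at 59.5 CPM in Usf1-KO and 40.7 in WT, and Tbx3 at 5.89 CPM in Usf1-KO and 19.3 in WT. The 3 highest cells gave 68.2% of the summed per-cell CPM of Glul in Usf1-KO and 35.3% in WT. These shares are not like for like, as 3 cells are a larger part of the 63 Usf1-KO cells than of the WT cells. The labels give no lobule zone for these cells, and fewer pericentral cells and less RNA per cell cannot be told apart in a pool.

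Periportal genes gave no mirror image. Of 25 kept, 3 were 2-fold higher and 4 lower at P12+40d, against 1.56% and 5.5% of all genes, with a median of -0.13. The direction turns with scaling: 4 were higher and 1 lower under TMM, against 2.59% and 2.75% of all genes, with a median of 0.15. The 3 higher were Sds (45.7 CPM in Usf1-KO and 22.2 in WT), Cdh1 (33.3 and 15.3 CPM) and Ctsc (135.9 and 48.5 CPM). The urea cycle genes Cps1, Ass1 and Asl were below WT but under 2-fold, with Cps1 at 720.3 CPM in Usf1-KO and 1293 in WT. At P60+14d, 8 of the 19 pericentral genes were 2-fold lower and 7 of the 25 periportal genes 2-fold higher in Usf1-KO, with medians of -0.85 and 0.69, where 1.15% of all genes were lower and 1% higher. Cyp2e1 was at 3906 CPM in Usf1-KO and 9504 in WT at that stage, and Cyp7a1 at 35.8 and 206.4 CPM.

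Genes of drug metabolism and bile acids overlap the pericentral list and were lower too. Of 27 kept drug metabolism genes, 15 were 2-fold lower and 0 higher, with a median of -1.10, and TMM scaling left 12, against 5.5% of all genes lower by CPM and 2.75% under TMM. Cyp3a11, the main drug-oxidising P450 of its subfamily, was at 509 CPM in Usf1-KO, 957 in Nr2f2-KO, 3350.3 in Xbp1-KO, 1698 in Tef-KO and 2070.4 in WT. Nr1i3, the xenobiotic receptor CAR, was at 13.7 CPM in Usf1-KO and 36.1 in WT, and at 48.7 and 122.1 CPM at P60+14d. Of 20 bile acid genes, 9 were 2-fold lower and 0 higher, with a median of -0.80, and under TMM scaling 6 were lower and 1 higher, to be read against the same shares of all genes. The sterol transporters Abcg5 and Abcg8, which work as a pair, were at 13.7 and 11.7 CPM in Usf1-KO and at 50.1 and 40.4 CPM in WT. Nr0b2, the repressor SHP, was above WT at 73.3 and 37.4 CPM.

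Part of the hormone-dependent and clock genes were 2-fold lower at P12+40d, where 5.5% of all genes were by CPM and 2.75% under TMM scaling. Of 23 genes driven by growth hormone or biased by sex, 7 were 2-fold lower and 0 higher at P12+40d, with a median of -0.79 and 4 lower under TMM scaling, and 0 in either direction at P60+14d, where the median was -0.01. Ghr, the growth hormone receptor, was at 233.4 CPM in Usf1-KO and 731 in WT, and Hsd3b5, a male-biased steroid dehydrogenase, at 46.98 and 280.4 CPM. Of 11 kept clock genes of 19 listed, 4 were 2-fold lower and 0 higher, with a median of -0.47, and TMM scaling also gave 4. At P60+14d, 0 clock genes passed 2-fold in either direction and the median was -0.41. Nr1d2, the clock repressor REV-ERB beta, was at 7.17 CPM in Usf1-KO, 52.9 in Nr2f2-KO, 22.7 in Xbp1-KO, 65.98 in Tef-KO and 41.7 in WT. Nr1d1, REV-ERB alpha, was at 0.862 CPM in Usf1-KO, 24.3 in Nr2f2-KO, 5.11 in Xbp1-KO, 35.1 in Tef-KO and 9.71 in WT. Tef-KO was the highest and Usf1-KO the lowest of the 5 pools for both. These genes cycle over the day, and the hour of collection is not given in the sources used here. Genes of glucose metabolism were 2-fold lower in 5 of 19 kept, against 5.5% of all genes, and under TMM scaling in 2, against 2.75% of all genes. Slc2a2, the glucose transporter of hepatocytes, was at 37.8 CPM in Usf1-KO and 103.02 in WT. G6pc, glucose 6-phosphatase, was at 151.7 CPM in Usf1-KO and 346 in WT at P12+40d, and at 324.98 and 68.1 CPM at P60+14d.

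The listed genes of protein folding and translation were within 2-fold of WT by CPM. Of 20 endoplasmic reticulum stress genes, 0 were 2-fold higher or lower, with a median of 0.26 against -0.32 over all genes. Under TMM scaling 3 were higher, against 2.59% of all genes, with a median of 0.54 against -0.05 over all genes. By CPM, 14 of the 20 lay above all other pools of the stage and 0 below them. Xbp1, the unfolded protein response factor that was itself knocked out in another pool, was at 131.7 CPM in Usf1-KO, 76.9 in Nr2f2-KO, 81.5 in Xbp1-KO, 115.5 in Tef-KO and 78.5 in WT. Creld2, a chaperone of that response, was at 387 CPM in Usf1-KO, 46.1 in Nr2f2-KO, 160.6 in Xbp1-KO, 59.8 in Tef-KO and 198.4 in WT. Of 20 ribosomal protein genes 0 passed 2-fold, with a median of -0.40 by CPM and -0.12 under TMM scaling. By CPM, 19 of these lay below all other pools of the stage and 0 above them. The same position was held by 18 of the 20 bile acid genes and 16 of 20 lysosome and autophagy genes. The share of all genes outside the other pools by any margin was not counted. Neither this count nor that of the endoplasmic reticulum stress genes is therefore read as a trait of its list. The 8 hepatocyte identity genes included none past 2-fold, with a median of -0.69.

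The named lower genes were the 12 furthest under WT among those at least 2-fold under it and at least 1.5-fold under all 4 other pools, also in a trimmed mean over cells, a rule that 3.85% of the 6288 genes met. The same rule for genes above WT was met by 62 genes (0.986%). Those values chose the genes and are given as a description. Hamp2, a hepcidin gene, was at 21.8 CPM in Usf1-KO, 42.3 in Nr2f2-KO, 41.4 in Xbp1-KO, 96.4 in Tef-KO and 355 in WT. Car3, a carbonic anhydrase, was at 381 CPM in Usf1-KO, 2367 in Nr2f2-KO, 3155 in Xbp1-KO, 2165 in Tef-KO and 3024 in WT, and 27 of 63 cells lay below the lowest WT cell. Upp2, a uridine phosphorylase, was at 40.0 CPM in Usf1-KO, 206.6 in Nr2f2-KO, 84.9 in Xbp1-KO, 227.7 in Tef-KO and 308.4 in WT. For Car3 the Usf1-KO pool stood alone, while for Hamp2 all 4 knockout pools lay well under the WT pool. The Hamp2 level of WT was uneven among cells, with a median of 21.4 and a highest cell of 4222 CPM, against a median of 7.63 and a highest cell of 445 CPM in Usf1-KO. Upp2 turned partly on the cell that stood apart: without it the Usf1-KO pool was at 27.7 CPM and the log2 ratio was -3.43. Cyp2a5, the coumarin hydroxylase, was at 46.1 CPM in Usf1-KO, 100.3 in Nr2f2-KO, 219.3 in Xbp1-KO, 283.3 in Tef-KO and 317.98 in WT. Its median cell was at 6.36 CPM in Usf1-KO and 24.2 in WT, and its highest cell at 683 CPM in Usf1-KO and 6024 in WT. Lpl, lipoprotein lipase, was at 4.13 CPM in Usf1-KO, 18.04 in Nr2f2-KO, 50.4 in Xbp1-KO, 15.8 in Tef-KO and 29.3 in WT.

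A further 6 of the named lower genes were low in absolute terms or uncertain as to their source. Rps3a3, annotated as a processed pseudogene of a ribosomal protein gene, was at 2.75 CPM in Usf1-KO, 5.56 in Nr2f2-KO, 106.1 in Xbp1-KO, 5.32 in Tef-KO and 58.3 in WT, so 3 pools were low and 2 high. Pttg1, securin, was at 1.85 CPM in Usf1-KO, 68.6 in Nr2f2-KO, 11.2 in Xbp1-KO, 70.5 in Tef-KO and 20.9 in WT. Without the cell that stood apart, Pttg1 was at 1.19 CPM, Pdilt at 1.73 CPM against 33.3 in WT and Fam13a at 1.87 CPM against 23.7 in WT. Gstm3, a glutathione transferase of a multigene family, was at 11.9 CPM in Usf1-KO and 95.5 in WT. Serpina4-ps1, a pseudogene, was at 20.9 CPM in Usf1-KO and 128.4 in WT.

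Tef and Nr2f2, transcription factor genes knocked out in other pools, were low in Usf1-KO, unlike Xbp1. Tef was at 5.72 CPM in Usf1-KO, 24.04 in Nr2f2-KO, 11.4 in Xbp1-KO, 44.1 in Tef-KO and 19.49 in WT. Nr2f2 was at 8.03 CPM in Usf1-KO, 31.6 in Nr2f2-KO, 23.1 in Xbp1-KO, 39.5 in Tef-KO and 24.03 in WT. For both genes the Usf1-KO pool was lower than the pool in which the gene itself was targeted. Tsc22d1, a leucine zipper regulator, was at 13.7 CPM in Usf1-KO, 88.9 in Nr2f2-KO, 89.6 in Xbp1-KO, 78.3 in Tef-KO and 157.9 in WT. Tef and Tsc22d1 were the genes among these that hold the USF E-box CACGTG, in capitals, within a promoter window (RefSeq, GRCm38.p6, plus strand). For Tef the windows are chr15:81802423-81802722 and chr15:81811164-81811463, with the first base of the E-box at -127 and -138 from the start. For Tsc22d1, of 5 starts, it is the window chr14:76415571-76415870, at -33.
Tef start 1: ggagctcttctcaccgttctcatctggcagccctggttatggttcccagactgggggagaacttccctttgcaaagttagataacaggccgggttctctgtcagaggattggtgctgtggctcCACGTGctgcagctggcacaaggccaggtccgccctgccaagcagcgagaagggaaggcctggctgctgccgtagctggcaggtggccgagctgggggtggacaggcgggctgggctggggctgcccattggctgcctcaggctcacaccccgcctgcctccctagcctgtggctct
Tef start 2: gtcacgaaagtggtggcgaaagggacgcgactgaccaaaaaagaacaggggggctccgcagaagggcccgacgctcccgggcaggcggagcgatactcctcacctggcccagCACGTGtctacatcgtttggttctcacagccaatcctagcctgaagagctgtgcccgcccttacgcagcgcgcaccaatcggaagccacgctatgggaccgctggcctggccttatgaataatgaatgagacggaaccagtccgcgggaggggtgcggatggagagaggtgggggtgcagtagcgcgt
Tsc22d1 start 2: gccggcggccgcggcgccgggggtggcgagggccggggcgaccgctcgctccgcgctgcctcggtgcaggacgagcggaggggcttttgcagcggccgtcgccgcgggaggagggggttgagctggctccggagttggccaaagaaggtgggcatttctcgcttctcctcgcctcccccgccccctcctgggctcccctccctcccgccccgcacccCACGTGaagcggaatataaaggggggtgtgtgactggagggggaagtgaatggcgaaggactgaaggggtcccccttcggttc
The windows of the 3 Srebf1 starts, and those of Fasn and Thrsp, hold no CACGTG. Counting every start of a gene, the E-box stood in 9.84% of the genes at least 2-fold lower in Usf1-KO, 4% of those higher (3 of 75), 12.5% of the 4784 kept genes and 8.09% of all 27025 genes. The share was lower among the genes lower in Usf1-KO than among all kept genes.

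The 2 Usf1 knockouts, with separate WT pools, had some genes in common. At P60+14d, 63 genes (1%) were 2-fold higher and 72 (1.15%) lower in Usf1-KO. Of these, 16 were higher at both stages, 16.3% of the P12+40d list and 25.4% of the P60+14d list. Another 45 were lower at both, 13.01% of the first and 62.5% of the second. The acute-phase genes were mostly within 2-fold of WT there: 4 of 32 were 2-fold higher and 1 lower at P60+14d, with a median of 0.25. Saa1 was at 870.5 CPM in Usf1-KO and 386 in WT at P60+14d, and Mt1 at 147.5 and 129.3 CPM.

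The Nr2f2-KO pool of P60+14d, which shares no WT cells with the P12+40d comparison, had a similar acute-phase pattern. Saa1 was there at 35800.4 CPM in Nr2f2-KO and 386 in WT, Saa3 at 1250.2 and 6.69 CPM, Lcn2 at 1333 and 3.15 CPM, and Mt1 at 3532 and 129.3 CPM. Of the 32 acute-phase genes, 21 were 2-fold higher in that pool, where 2% of all genes were, and 20 of these were also higher in the P12+40d Usf1-KO pool. Over all genes, 57 were higher in both, 58.2% of the P12+40d Usf1-KO list and 45.2% of the Nr2f2-KO list. The genes lower in both were 29.2% of the Usf1-KO list and 64.7% of the Nr2f2-KO list, with 2.48% of all genes lower in the Nr2f2-KO pool. Of the 19 pericentral genes, 13 were lower there too. The Nr2f2-KO pool of P12+40d did not have the acute-phase pattern: 2 of the 32 genes were 2-fold higher and 6 lower, with 1.62% and 1.51% of all genes there. A high acute-phase level was thus found in 1 of 2 Usf1-KO pools and in 1 of 2 Nr2f2-KO pools, at opposite stages.

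The level of many genes lower in Usf1-KO climbs during normal postnatal growth. The time course was made from hepatocytes labelled Alb-Cre; Rosa-tdTomato, with no knockout, by mSTRT-seq, which pools barcoded cDNA of single cells. Here 859 of its cells were summed by age at 6 ages between P12 and P60, 44 of them at P60. Of 5618 genes measured in both assays, 8.79% were at least 2-fold higher at P30 than at P12 and 2.49% at least 2-fold lower. Among the genes 2-fold lower in Usf1-KO these shares were 34.6% and 7.53%. Among the 78 genes 2-fold higher in Usf1-KO they were 23.1% and 12.8%. At P60 against P12, the share that was higher was 38.01% for the genes lower in Usf1-KO, 20.5% for those higher and 10% for all genes. The share that was lower was 6.85% for the genes lower in Usf1-KO, 23.1% for those higher and 4.17% for all genes. Each age is 1 pool from an assay other than Smart-seq3, so these are descriptions.

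Single genes ran in both directions over the 6 ages, P12 first. Car3 was at 334.4, 457, 861, 1198, 2428 and 3941 CPM in that order, and Hamp2 at 4.30, 13.9, 14.4, 1121, 2130 and 1931 CPM. Scd1 was at 2001 CPM at P60 and 17.9985 CPM at P12. Lower at P60 were Tsc22d1, at 33.6 CPM against 498 CPM at P12, Lect2, at 187.5 against 1157 CPM, and Usf1 itself, at 107.98 against 361.6 CPM. Lect2 and Tsc22d1 were nonetheless below WT in Usf1-KO. Saa1 had no steady course, at 74.9, 51.4, 482, 196.4, 1793 and 657 CPM over the ages.

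A replicated test could be made with the pool as the replicate: edgeR's quasi-likelihood test over 6 pools (Usf1-KO, Nr2f2-KO and WT at both stages), with stage as a block and 2 residual degrees of freedom. Of 16183 genes, 0 had an adjusted p under 0.05 for Usf1-KO against WT (0%), and the smallest adjusted p was 0.425. At an unadjusted p under 0.05 there were 390 genes higher and 433 lower, and DESeq2 on the same pools called 95 higher and 69 lower of 14932 (1.1%). Srebf1 had a log2 ratio of -2.10 ± 0.22 (SE), with an edgeR adjusted p of 0.490, and was lower in 2 of 2 stages. Its edgeR adjusted p was 0.0313 when the 4 Usf1-KO and WT pools were fitted alone, and its DESeq2 adjusted p was 1.8e-11. DESeq2 also called Hamp2 (log2 ratio -2.69, adjusted p 5.2e-06), Cyp2a5 (-1.97, 0.000646) and Sox9 (2.80, 0.000216). In the edgeR fit of the 6 pools their adjusted p was 0.888 for Hamp2, 0.907 for Cyp2a5 and 0.909 for Sox9. Srebf1 was taken up as a marker with earlier results of these data known, and it also met the rule for named lower genes. Hamp2, Cyp2a5 and Sox9 were named for their distance from WT. The P12+40d pools behind those choices are part of all these fits. The p-values of these genes are therefore not independent of the choice of genes, and no conclusion is drawn from them. The Usf1 transcript had a log2 ratio of 0.31 in the edgeR fit.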

How the data were processed

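The deposited tables hold whole-number counts per gene symbol and cell, which the authors did not normalise. The submitters' processing notes name Bowtie2, featureCounts 1.5.3 and 2.0.0, HISAT2 2.1.0, HTSeq 0.6.0, SAMtools 1.3.1, TopHat, TopHat2 2.1.0, Trimmomatic 0.39, UMI-tools 0.5.0 and the builds GRCm38 and mm10, without roles. Neither the use of strand nor the treatment of multiply mapped reads is given in the sources used here, so overlapping and near-identical genes may share reads.

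The Smart-seq3 table has 40824 genes. All its cells were used, no cell having fewer than 200000 counts, ERCC spike-ins were left out of the totals, and no doublet caller was run because cells were picked singly. Counts were summed per pool and scaled to CPM, and log2 ratios used a pseudocount of 1 CPM over the 6288 genes with a mean of at least 10 CPM in the 5 P12+40d pools. The named-gene rule took Usf1, Srebf1, Saa1, Nr2f2, Xbp1 and Tef, and the 12 genes furthest above and the 12 furthest below WT among genes past 2-fold, at least 1.5-fold outside the other 4 pools, and at least 1.5-fold apart in the 5% trimmed mean of cells. Members of the gene lists were named with their list. The genes and lists were chosen with earlier results of these data known. Pools were tested with edgeR 4.0.16 (TMM, filterByExpr, quasi-likelihood, Benjamini-Hochberg) and with DESeq2 1.42.0 in R 4.3.3; the rest used Python 3.11.15, numpy 2.4.6, pandas 2.3.3, scipy 1.17.1 and matplotlib 3.10.9. The edgeR test was checked on 6 simulated pools with 200 genes changed 4-fold in both Usf1-KO pools. It recovered 29% of them, with 3 false calls, so a lack of calls does not show a lack of change. The pool was the replicate, and its p-values measure only the spread between pools. Coordinates are those of GENCODE M21, and promoters come from the RefSeq table on GRCm38.p6.

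The postnatal time course came from deposited mSTRT-seq counts, from which 1310 columns of other cells were not used; for P60, 44 of the labelled cells, every 4th label number, were used. Alternatives were scaling, per-cell means, filters, pseudocounts, controls and left-out pools. Removal of the Usf1-KO cell that stood apart, totals without the 10 most abundant genes and single knockout pools as the control were chosen after seeing the data. Results on 2 genes are not reported here.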

Additional observations from a re-analysis of the deposited data

Results flagged for a closer look

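A few of the named genes lay on opposite sides of WT at the 2 stages. Id3 was above WT at P12+40d, with a log2 ratio of Usf1-KO to WT of 2.80, and below it at P60+14d, with -0.996. Gstm3 was below WT at P12+40d (-2.91) and above it at P60+14d (0.89). Serpina4-ps1 was below WT at P12+40d (-2.57) and above it at P60+14d (0.90), and so was Lpl (-2.56 and 0.97). Each stage has 1 pool per group, so these differences between the stages were not tested.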

How the results depend on the processing

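No paired analysis was possible because the replicate numbers in the labels count cells within a pool. At P12+40d, 1.56% of the genes were 2-fold higher and 5.5% lower in Usf1-KO, and that split depends on scaling: TMM factors gave 2.59% and 2.75%, DESeq2 factors 2.66% and 2.59%, and totals without the 10 most abundant genes 2.29% and 3.32%. A minimum mean of 1 CPM gave 2.09% and 4.94% of 10927 genes, and no filter 1.13% and 2.35% of 23996, more genes being measured. With Tef-KO as the control 2.19% were higher and 9.46% lower. Pseudocounts, per-cell means, the other controls and removal of the cell that stood apart kept both counts within 1.5 times. A minimum of 200000 counts per cell removed no cell. No named gene and no list changed sign past 2-fold at P12+40d under these settings.

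The edgeR test over both stages made 0 calls in the 6-pool fit. With the 4 Usf1-KO and WT pools alone, at 1 residual degree of freedom, 6 genes were higher and 5 lower, and DESeq2 gave 95 and 69. Leaving out each pool in turn gave 0 to 15 higher and 0 to 11 lower, and the calls came when a Nr2f2-KO pool was left out. Srebf1 kept its direction, at -2.36 to -1.85, with adjusted p between 0.0139 and 1. Other values, as log2 ratios over both stages, turned with single pools, most of them when the P12+40d Usf1-KO pool was left out: Saa1 ran from -1.97 to 5.63, Saa2 from -2.38 to 8.02, Saa3 from -0.56 to 8.64, Lcn2 from -2.42 to 7.66, Orm2 from -2.82 to 5.46, Mt1 from -0.66 to 5.81, Mt2 from -0.95 to 6.47, Steap4 from -0.83 to 4.92, Tifa from -1.09 to 4.05, Id3 from -0.94 to 3.11 and Xbp1 from -0.066 to 1.14. Gstm3 ran from -2.51 to 0.71, Serpina4-ps1 from -1.96 to 0.61, Pttg1 from -3.82 to 0.057, Lpl from -2.92 to 1.35 and Usf1 from -0.27 to 0.82. Lpl was also at 0.059 without the stage block. The fit uses 1 effect per knockout for both stages. Without the P12+40d Usf1-KO pool, the Nr2f2-KO pools therefore also set the fitted WT level at P60+14d. Values from that fit are thus not the direct ratios of Usf1-KO to WT at P60+14d. Those were 1.17 for Saa1, 2.21 for Saa2, 1.91 for Saa3, 1.61 for Lcn2, 0.38 for Orm2 and 0.19 for Mt1. They were 0.72 for Mt2, 0.0069 for Xbp1, -0.32 for Steap4, -0.26 for Tifa and -0.996 for Id3. Apart from this, the cause was not tested.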

Other observations

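Further genes than Srebf1 were called over both stages when the Usf1-KO and WT pools were fitted alone, with edgeR at 1 residual degree of freedom. They were not among the genes named by the rule at P12+40d. Cdkn1a, Scara5, Ucp2, Slc3a1 and Cyp2c40 met its fold conditions there but were not among the 12 furthest from WT. Cdkn1a, the cell cycle inhibitor p21, was at 112.9 CPM in Usf1-KO and 21.6 in WT at P12+40d, and at 5.14 and 0.531 CPM at P60+14d. Scara5, a ferritin receptor, was at 32.95 CPM in Usf1-KO and 9.52 in WT at P12+40d, and at 14.3 and 2.59 CPM at P60+14d. Ucp2, a mitochondrial carrier, was at 48.3 CPM in Usf1-KO and 17.7 in WT, and at 19.96 and 5.59 CPM. Cyp2c40, of a near-identical family, was at 10.4 CPM in Usf1-KO and 61.8 in WT, and at 6.58 and 27.3 CPM. At P60+14d the Nr2f2-KO pool lay further from WT the same way for Cdkn1a (26.4 CPM), Scara5 (24.04) and Cyp2c40 (3.73), but not for Ucp2 (4.41). Cd14, Slc3a1 and Gm10240 were also higher, and Srebf1, Ly6a, Mup-ps4 and Bglap3 also lower. Gm10240 was at 34.9 CPM in Usf1-KO, 44.4 in Xbp1-KO and 40.9 in Tef-KO at P12+40d. Levels were near 0 for Cd14 at P60+14d (0.530 CPM in Usf1-KO and 0 in WT) and for Bglap3 at P12+40d (0 and 0.355 CPM). The edgeR adjusted p was 0.0313 for Cdkn1a and Cyp2c40 in that fit, with log2 ratios of 2.97 and -2.14 and the same direction at 2 of 2 stages. These genes are given because that fit called them, and the P12+40d pools are part of it. Their p-values are not independent of that choice, and no conclusion is drawn from them.

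Sds, Cdh1 and Ctsc, the periportal genes 2-fold above WT at P12+40d, were above it at P60+14d as well, with 89.9 CPM in Usf1-KO and 33.3 in WT for Sds and 31.9 and 10.4 CPM for Cdh1. Of 8 kept p53 targets, Cdkn1a was the 1 gene at least 2-fold higher at P12+40d by CPM, and 0 were lower. Among all genes, 1.56% were higher and 5.5% lower. TMM scaling put 3 of the 8 higher, against 2.59% of all genes. At P60+14d, 3 of the 8 were 2-fold higher in Usf1-KO and 0 lower, against 1% and 1.15% of all genes.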
